A study of Mus musculus with 27 samples.

Results

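Yap1, Wwtr1, Tead1, Ctgf, Cyr61, Ankrd1, Amotl2, Lats2 and Ajuba are the factors, targets and regulators of YAP/TEAD transcription described here, in mouse mammary epithelial cells taken through an epithelial-to-mesenchymal transition (EMT) with TGF-β. They were chosen by name with earlier results of these data known, so their counts are a description, and were 9 of 23295 genes in the expression table of parental cells and 9 of 24247 genes in the table of cells carrying shRNA. All 9 were above 5 FPKM (sequenced fragments scaled to transcript length and to the total of mapped fragments) in each of the 18 RNA-seq libraries, the lowest value being 5.83 FPKM for Lats2, so none entered the tests only through a group in which it was high.

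NMuMG is an epithelial line from normal mouse mammary gland. RNA-seq was done with 2 libraries per group in 9 groups. These were parental cells, cells infected with an irrelevant control shRNA and cells infected with an shRNA against lamin B1 (lamin B1 KD), each of them without TGF-β or after 8 or 24 h of it, at 1 to 5 ng/ml according to the labels. The KD and control cells both went through infection, so parental cells are not their control. Lamin B1 ChIP-seq, on a chromatin fraction enriched in euchromatin, and ATAC-seq, which marks accessible DNA, were done in parental cells at the same 3 times with 1 library each, so their peaks have no replicate error.

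YAP (from Yap1) and TAZ (from Wwtr1) are coactivators without a DNA-binding domain of their own, and they act on genes by binding TEAD factors such as TEAD1. The Hippo kinases restrain them. The MST kinases activate the LATS kinases, which phosphorylate YAP and TAZ and thereby keep them in the cytoplasm or send them to degradation. Loss of cell contacts, spreading and tension on the actin cytoskeleton release this restraint, and in epithelial cells treated with TGF-β YAP and TAZ share many target genes with SMAD factors. Ctgf and Cyr61 encode secreted matricellular proteins, Ankrd1 a nuclear and sarcomeric ankyrin repeat protein, and all 3 are classical YAP/TEAD readouts. Amotl2 and Lats2 are targets that feed back on the pathway, since angiomotin-like 2 holds YAP in the cytoplasm and LATS2 phosphorylates it. Ajuba encodes a LIM domain protein of cell junctions that restrains LATS kinases.

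The promoter sequences are shown first because TEAD factors reach these target genes through sites in the DNA. RefSeq promoters (GRCm38.p6) were found for 7 of the 9 genes, with Cyr61 under the name Ccn1, and not for Tead1 and Ctgf. Their 250 bases upstream of the transcription start site (TSS) were searched for GGAATG or its reverse complement CATTCC, the core of the TEAD motif, and all 7 were placed on mm9 by an exact match. Of the 7 genes, 6 held at least 1 match, against 12.64% of 32851 mouse promoters of the same length. Wwtr1 and Lats2 had 2 promoters each, and a gene was counted if any of its promoters matched, while the share is of single promoters. Ankrd1 and Ajuba held 2 matches each, and 1.02% of all promoters held 2 or more. Lats2, with 2 annotated promoters, held none in these windows. The promoters of a secreted target, of the nuclear target and of the junction gene are given in full, from 5′ to 3′ on the strand of the gene, with the TEAD matches in capitals and the TSS directly after the last base.
Cyr61, chr3:145312950-145313199, minus strand: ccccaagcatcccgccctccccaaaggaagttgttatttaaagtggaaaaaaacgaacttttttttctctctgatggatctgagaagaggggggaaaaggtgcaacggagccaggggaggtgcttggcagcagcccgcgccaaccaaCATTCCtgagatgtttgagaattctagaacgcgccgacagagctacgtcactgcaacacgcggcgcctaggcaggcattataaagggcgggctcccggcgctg
Ankrd1, chr19:36194335-36194584, minus strand: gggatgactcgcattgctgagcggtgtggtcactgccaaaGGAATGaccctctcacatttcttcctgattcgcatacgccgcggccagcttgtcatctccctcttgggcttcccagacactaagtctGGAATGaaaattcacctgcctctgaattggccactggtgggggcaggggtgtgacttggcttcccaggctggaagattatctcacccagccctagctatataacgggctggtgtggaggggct
Ajuba, chr14:55196499-55196748, minus strand: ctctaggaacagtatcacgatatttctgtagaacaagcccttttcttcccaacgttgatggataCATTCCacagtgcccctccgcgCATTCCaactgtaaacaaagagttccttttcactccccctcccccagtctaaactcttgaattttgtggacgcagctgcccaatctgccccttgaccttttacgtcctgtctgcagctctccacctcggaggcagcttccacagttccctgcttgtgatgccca

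The other matches were at Yap1, Wwtr1 and Amotl2, and 30 bases around each are shown, on the strand of the gene.
Yap1, chr9:8004720-8004749, minus strand: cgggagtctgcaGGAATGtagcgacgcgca
Wwtr1, chr3:57379951-57379980, minus strand: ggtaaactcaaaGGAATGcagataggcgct
Amotl2, chr9:102620057-102620086, plus strand: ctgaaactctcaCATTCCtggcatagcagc
The first base of the match lay 103 bases upstream of the TSS in Cyr61, 210 and 123 bases in Ankrd1, 186 and 164 bases in Ajuba, 141 bases in Yap1, 136 bases in Wwtr1 and 65 bases in Amotl2. Thus the pair of matches in Ajuba lay close together, and that in Ankrd1 was spread over the window. The SMAD sequence CAGACA or TGTCTG was found once in Ankrd1 and once in Ajuba, and 17.1% of all promoters held it. The AP-1 sequence TGANTCA was found in none of the 7 genes, against 6.75% of all promoters. A match is only a run of letters in a window and does not show that a factor binds there.

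The libraries were checked before the genes were compared. Replicates correlated with Pearson r of 0.9904 to 0.9945 across genes in parental cells and of 0.983 to 0.9926 in cells with shRNA, and the least alike pair was that of KD cells at 24 h. Lmnb1, the target of the shRNA, was at 29.2 and 36.5 FPKM in untreated control cells and at 9.01 and 9.27 FPKM in untreated KD cells, at 32.8 and 32.1 against 7.79 and 8.14 FPKM at 8 h, and at 18.4 and 17.9 against 4.37 and 7.52 FPKM at 24 h. Its level was thus lower in each KD library than in each control library of the same time, with the second KD library at 24 h the nearer of its pair to the controls. TGF-β itself went with a fall of Lmnb1 in parental cells, from 36.9 and 36.3 FPKM untreated to 19.5 and 17.6 FPKM at 24 h. Of 5 epithelial markers, Krt8, Krt18, Krt19 and Cdh1 had a group mean of at least 18.8 FPKM everywhere, and Epcam had means of 0.175 to 2.98 FPKM. Krt19 moved from 1005 and 982 FPKM to 55.5 and 69.1 FPKM over 24 h of TGF-β in parental cells and from 1056 and 945 FPKM to 18.04 and 19.6 FPKM in control cells, and Cdh1, the gene of E-cadherin, from 113 and 119 FPKM to 39.4 and 41.1 FPKM in parental cells. Krt8 and Krt18 means were no lower at 24 h than untreated in any of the 3 kinds of cells. Cdh1 was at 51.6 and 52.1 FPKM in control and 83.1 and 84.1 FPKM in KD cells at 8 h, and at 26.8 and 27.6 FPKM and 46.6 and 60.1 FPKM at 24 h. The part of these marker differences in the results was not tested. Summed immune markers (Ptprc, Cd3e and Cd68) reached at most 1.94 FPKM, and summed endothelial and fibroblast markers 1.28 and 1.85 FPKM. The 10 genes with the most FPKM, led in each library by a small nucleolar RNA, held 11.4% to 16.9% of the sum in untreated cells with shRNA and 17.9% to 40.4% in treated ones. In those cells the median of all tested genes was lower after TGF-β by 0.10 to 0.14 on the log2 scale and at -0.03 or nearer to 0 after quantile normalization, so small changes there are read against that shift.

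Levels are given as FPKM as deposited. Differences are differences of log2(FPKM + 1), a scale that slightly understates the change of low genes, and were tested with limma over all genes of a table that reached 1 FPKM in at least 2 libraries, with Benjamini-Hochberg adjustment and a threshold of 0.05. FPKM values are per length, so levels of different genes can be set side by side, but the parental table and the table of cells with shRNA were normalized separately and no test was made between them.

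The first comparison asked how the 9 genes moved when parental cells were treated with TGF-β. At 8 h, 8 of the 9 genes rose and none fell, where 22.4% of the 11309 genes tested rose and 32.1% fell. At 24 h all 9 rose, where 33.4% of genes rose and 37.1% fell. The median difference of the 9 genes was 0.29 at 8 h and 0.67 at 24 h, beside -0.05 and -0.02 for all genes tested. The size of the rise differed widely between the genes, from 1.15-fold for Yap1 to 6.999-fold for Ctgf at 24 h. In such bulk libraries a change in the make-up of the culture and a change of RNA per cell cannot be told apart. The plot of FPKM by library shows each of these values.

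**Figure D1:**
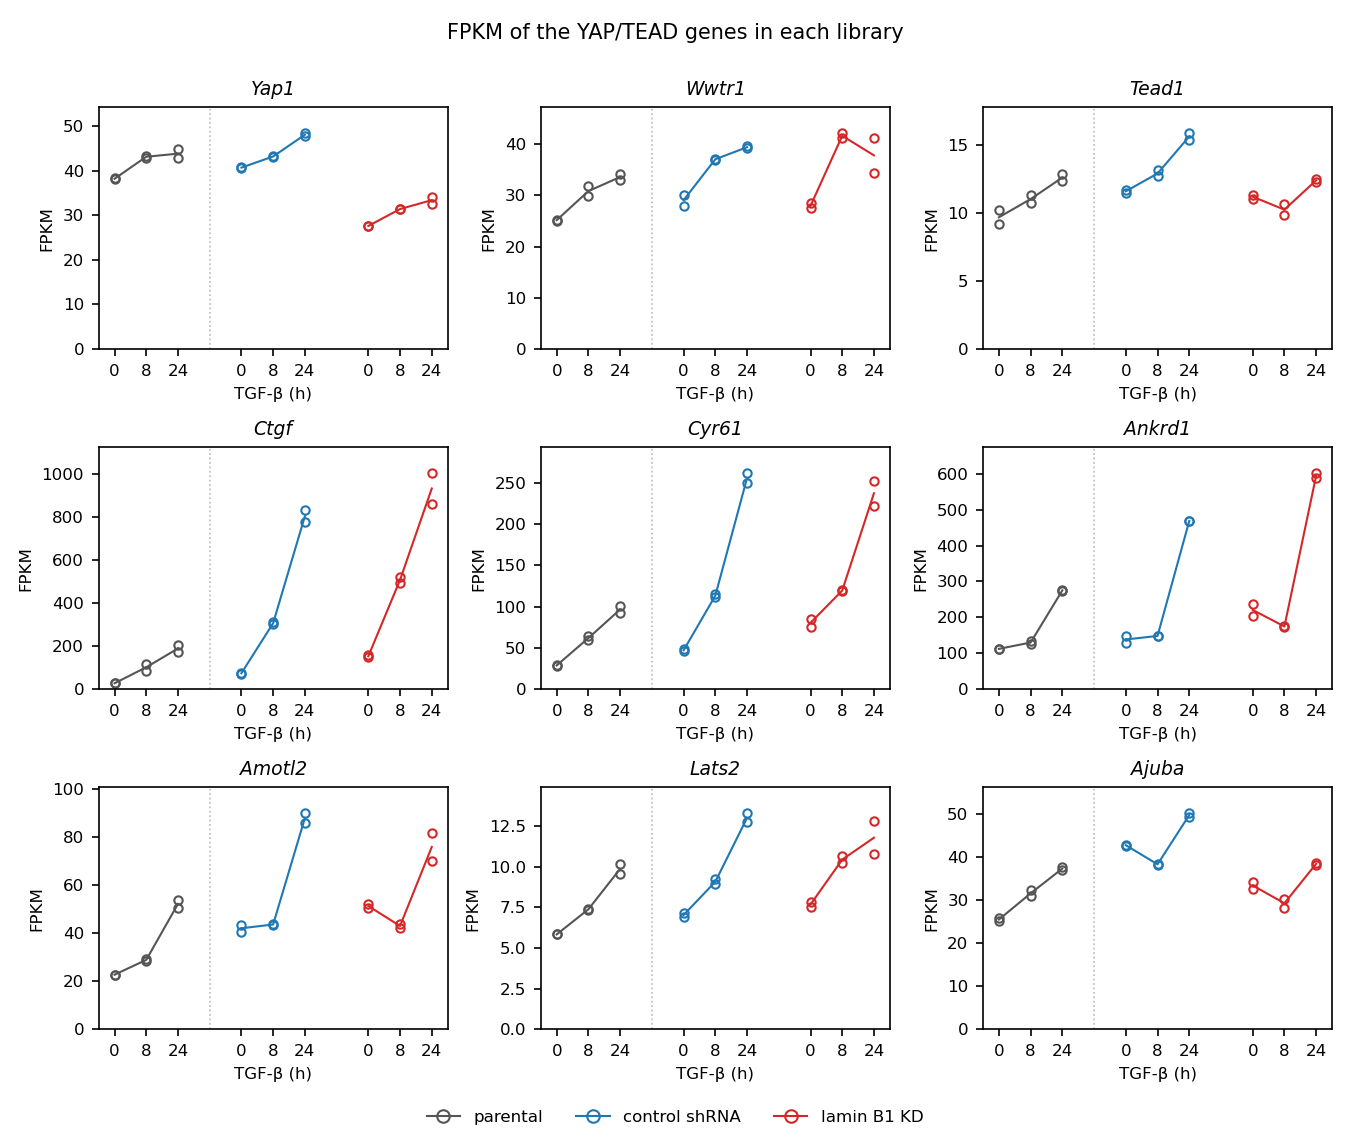
FPKM (linear axis from 0) of each of the 9 genes against hours of TGF-β. Open circles are single libraries, 2 per group, and lines join the group means of parental (grey), control shRNA (blue) and lamin B1 KD cells (red), with a dotted line between the separately normalized tables. Ctgf, Cyr61 and Ankrd1 are highest at 24 h in all 3 kinds of cells, and Yap1 in KD cells lies below Yap1 in control cells at every time.

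Of the 9 genes, the factor genes Yap1, Wwtr1 and Tead1 moved little. Yap1 was at 38.1 and 38.3 FPKM in untreated parental cells, 43.4 and 42.9 FPKM after 8 h and 44.9 and 42.9 FPKM after 24 h. The treated libraries were all above the untreated ones, and those of 8 and 24 h overlapped. The difference from untreated cells was 0.17 (SE 0.039, adjusted p = 0.00946) at 8 h and 0.19 (SE 0.039, adjusted p = 0.00362) at 24 h by limma. Wwtr1 was at 25.3 and 25.1 FPKM untreated, 31.8 and 29.9 FPKM after 8 h and 34.2 and 33.00 FPKM after 24 h. Its libraries did not overlap between the 3 times, and the differences from untreated cells were 0.28 (SE 0.045, adjusted p = 0.00193) and 0.40 (SE 0.045, adjusted p = 0.000179) by limma. Tead1, the lowest of these 3 factors, was at 9.18 and 10.2 FPKM, then at 10.7 and 11.3 FPKM and 12.9 and 12.4 FPKM. Its libraries did not overlap between times either, but the difference at 8 h was 0.17 (SE 0.063, adjusted p = 0.0538) by limma and missed the threshold, while that at 24 h was 0.35 (SE 0.063, adjusted p = 0.00195). The 8 h difference of Tead1 was 0.22 after quantile normalization (adjusted p = 0.0194) and 0.24 without the second untreated library (adjusted p = 0.0309), both by limma. Reads of Tead1 and of the lincRNA annotated on the opposite strand over its start cannot be told apart in values counted without strand. The study shows strand-specific RNA-seq profiles of parental cells, but whether strand was used for the FPKM values is not given in the sources used here.

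The secreted targets rose early and kept rising. Ctgf was at 27.6 and 26.3 FPKM in untreated parental cells, 117 and 85.7 FPKM after 8 h and 206 and 171 FPKM after 24 h. The groups did not overlap, although the replicates within 8 h and within 24 h lay further apart than those of any other of the 9 genes. The mean was 3.76-fold and 6.999-fold that of untreated cells, with log2 differences of 1.86 (SE 0.14, adjusted p = 9.98e-05) and 2.76 (SE 0.14, adjusted p = 4.91e-06) by limma. A lincRNA also overlaps Ctgf on the opposite strand, as at Tead1. Cyr61 was at 29.4 and 27.96 FPKM, then at 64.2 and 59.5 FPKM and 101 and 91.7 FPKM, again without overlap. This was 2.16-fold and 3.37-fold the untreated mean, with differences of 1.08 (SE 0.062, adjusted p = 3.88e-05) and 1.71 (SE 0.062, adjusted p = 1.25e-06) by limma.

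Ankrd1 and Amotl2 rose mainly after 8 h. Ankrd1, the highest of the 9 genes in untreated parental cells, was at 112 and 113 FPKM untreated, 126 and 134 FPKM after 8 h and 274 and 276 FPKM after 24 h. The 8 h libraries lay just above the untreated ones, with a difference of 0.21 (SE 0.041, adjusted p = 0.00513), and the step from 8 to 24 h was 1.08 (SE 0.041, adjusted p = 6.06e-06) by limma. Amotl2 was at 22.7 and 22.7 FPKM, 29.2 and 28.5 FPKM and 53.7 and 50.6 FPKM. Its difference from untreated cells was 0.33 (SE 0.043, adjusted p = 0.000775) at 8 h and 1.17 (SE 0.043, adjusted p = 1.37e-06) at 24 h by limma. For both genes the 3 groups stood apart from each other.

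The kinase gene Lats2 and the junction gene Ajuba rose in smaller and more even steps. Lats2 was at 5.83 and 5.84 FPKM untreated, 7.42 and 7.35 FPKM after 8 h and 10.2 and 9.57 FPKM after 24 h, differences of 0.29 (SE 0.052, adjusted p = 0.0031) and 0.67 (SE 0.052, adjusted p = 3.01e-05) from untreated cells by limma. The protein-coding gene Xpo4 overlaps Lats2 on the same strand in the annotation, and its part in the Lats2 values was not tested. Ajuba was at 25.8 and 25.1 FPKM, 30.8 and 32.2 FPKM and 37.6 and 36.95 FPKM, differences of 0.30 (SE 0.041, adjusted p = 0.00107) and 0.53 (SE 0.041, adjusted p = 2.92e-05) by limma. Neither Lats2 nor Ajuba had libraries that overlapped between times. From 8 to 24 h, 7 of the 9 genes rose further by limma, where 27.7% of genes did and 24.0% fell, and the exceptions were Yap1 with 0.02 (SE 0.039, adjusted p = 0.66) and Wwtr1 with 0.12 (SE 0.045, adjusted p = 0.0608). The call of Tead1 in that step, 0.18 (SE 0.063, adjusted p = 0.0488) by limma, was lost without the first library of 8 h or either library of 24 h (adjusted p = 0.108 to 0.21) after quantile normalization (0.0911) and without the filter on low values (0.0932). Wwtr1 was called in that step without the first library of 8 h (0.0324) and after quantile normalization (0.0326).

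The same treatment was given to control shRNA cells. At 24 h all 9 genes were higher than in untreated control cells, where 25.5% of the 11450 genes tested rose and 45.1% fell. At 8 h the picture was mixed, with 5 genes higher and 1 lower, beside 19.4% of all genes higher and 44.9% lower. Of all genes called at 8 h, 30.2% were higher in the values as deposited and 46.0% after quantile normalization, and at 24 h 36.1% and 49.99%. Levels in untreated control cells were above those in untreated parental cells in all 9 genes, but these stem from separate tables.

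Ctgf went from 75.5 and 71.96 FPKM in untreated control cells to 301 and 310.3 FPKM after 8 h and 829.7 and 775 FPKM after 24 h, the steepest rise of the 9 genes. The mean at 24 h was 10.9-fold that of untreated cells, a log2 difference of 3.43 (SE 0.073, adjusted p = 2.6e-09) by limma, and at 8 h it was 4.15-fold. Cyr61 went from 45.9 and 48.03 FPKM to 115 and 111 FPKM and 261 and 249.8 FPKM, with differences of 1.25 (SE 0.07, adjusted p = 1.06e-06) and 2.42 (SE 0.07, adjusted p = 1.32e-08) by limma. In both genes the groups were well separated.

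Ankrd1 and Amotl2 were late genes in control cells as well. Ankrd1 was at 147 and 129 FPKM untreated, at 148 and 148 FPKM at 8 h and at 468 and 468 FPKM at 24 h. The difference at 8 h was 0.10 (95% interval -0.06 to 0.27, adjusted p = 0.246) and that at 24 h 1.76 (SE 0.072, adjusted p = 8.82e-08) by limma. Amotl2 was at 43.4 and 40.6 FPKM, 43.8 and 43.4 FPKM and 89.9 and 85.9 FPKM, with 0.05 (95% interval -0.10 to 0.21, adjusted p = 0.524) at 8 h and 1.05 (SE 0.069, adjusted p = 1.47e-06) at 24 h by limma.

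Ajuba was lower at 8 h than before treatment, at 38.2 and 38.4 FPKM against 42.8 and 42.6 FPKM, and higher at 24 h, at 50.1 and 49.3 FPKM. The 8 h difference of -0.15 (SE 0.042, adjusted p = 0.0111) was close to the shift of all genes, and after quantile normalization it was -0.06 with an adjusted p of 0.279 by limma. Without the first 8 h library it was -0.15 with an adjusted p of 0.0533. Lats2 rose from 7.16 and 6.90 FPKM to 9.24 and 8.92 FPKM and 13.3 and 12.7 FPKM, with differences of 0.33 (SE 0.072, adjusted p = 0.00359) and 0.80 (SE 0.072, adjusted p = 1.07e-05) by limma. Wwtr1 rose from 30.2 and 27.99 FPKM to 37.2 and 36.96 FPKM and 39.6 and 39.3 FPKM, most of it by 8 h. Tead1 went from 11.5 and 11.7 FPKM to 13.1 and 12.7 FPKM and 15.4 and 15.9 FPKM, with an 8 h difference of 0.14 (SE 0.048, adjusted p = 0.0277) by limma. That call of Tead1 was lost without the first untreated or either 8 h library, where the difference was 0.12 to 0.17. It was also lost when only the groups compared were fitted (adjusted p = 0.0814 by limma). Yap1 went from 40.8 and 40.6 FPKM to 43.1 and 43.4 FPKM and 48.4 and 47.7 FPKM. For Yap1 the difference was 0.08 (SE 0.035, adjusted p = 0.0593) at 8 h, or 0.18 with an adjusted p of 0.0013 after quantile normalization, and 0.23 (SE 0.035, adjusted p = 0.00026) at 24 h by limma.

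In lamin B1 KD cells, 5 genes were higher and 3 lower at 8 h than in untreated KD cells, beside 23.0% of all genes higher and 44.8% lower. At 24 h all 9 were higher, where 28.6% of genes were higher and 43.3% lower. Of all genes called, 33.9% were higher at 8 h (46.0% after quantile normalization) and 39.8% at 24 h (50.1%). The plot of TGF-β responses puts the 3 kinds of cells beside each other.

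**Figure D2:**
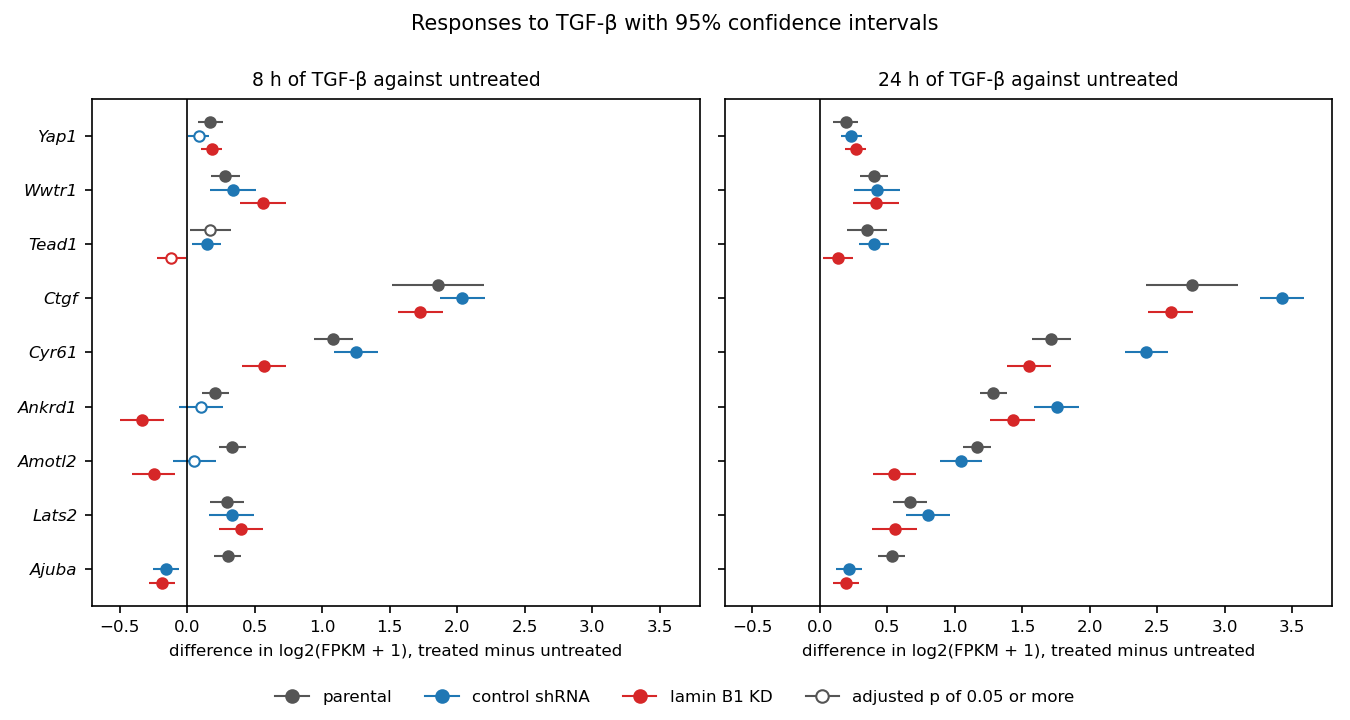
Difference in log2(FPKM + 1) between treated and untreated cells for each gene, at 8 h (left) and 24 h (right), in parental (grey), control shRNA (blue) and lamin B1 KD cells (red). Points are limma estimates from 2 libraries per group with 95% confidence intervals, and white points had an adjusted p of 0.05 or more. At 8 h the KD points of Ankrd1 and Amotl2 lie left of 0, and at 24 h the KD points of Ctgf, Cyr61 and Amotl2 lie left of the control points.

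Ankrd1 and Amotl2 fell at 8 h in KD cells before rising. Ankrd1 went from 205 and 236 FPKM in untreated KD cells to 173 and 175 FPKM after 8 h and 587 and 601 FPKM after 24 h, with a difference of -0.33 (SE 0.072, adjusted p = 0.00302) at 8 h and 1.43 (SE 0.072, adjusted p = 2.49e-07) at 24 h by limma. Amotl2 went from 50.4 and 52.2 FPKM to 42.2 and 43.7 FPKM and 69.9 and 81.9 FPKM, with -0.25 (SE 0.069, adjusted p = 0.0109) and 0.55 (SE 0.069, adjusted p = 9.33e-05) by limma. After quantile normalization the 8 h differences were -0.31 for Ankrd1 and -0.20 for Amotl2, with adjusted p of 0.0136 and 0.0392 by limma. The 8 h call of Amotl2 was lost without the second untreated or the first 8 h library (adjusted p = 0.0632 and 0.0628). Ajuba went from 32.5 and 34.3 FPKM to 30.2 and 28.2 FPKM and 38.6 and 38.1 FPKM, and its 8 h difference of -0.19 (SE 0.042, adjusted p = 0.00399) became -0.10 with an adjusted p of 0.0844 by limma after quantile normalization.

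Ctgf went from 148 and 157 FPKM in untreated KD cells to 494 and 519 FPKM after 8 h and 860.3 and 1001 FPKM after 24 h. The mean at 24 h was 6.11-fold the untreated one, a difference of 2.60 (SE 0.073, adjusted p = 9.38e-09) by limma. Cyr61 went from 75.5 and 85.02 FPKM to 119.5 and 119 FPKM and 222 and 252 FPKM, differences of 0.57 (SE 0.07, adjusted p = 0.0001) and 1.55 (SE 0.07, adjusted p = 1.33e-07) by limma. Both genes thus started higher and rose by a smaller factor than in control cells, and the test of that difference is given after the next comparison.

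Among the regulators and factors in KD cells, Lats2 was at 7.51 and 7.84 FPKM untreated, 10.7 and 10.2 FPKM after 8 h and 12.8 and 10.8 FPKM after 24 h. Wwtr1 was at 27.5 and 28.4 FPKM, 42.2 and 41.2 FPKM and 41.3 and 34.4 FPKM, and the replicates of 24 h lay on either side of those of control cells. Yap1 rose from 27.7 and 27.5 FPKM to 31.5 and 31.3 FPKM and 32.6 and 34.2 FPKM. Tead1 was at 11.4 and 11.05 FPKM, 10.7 and 9.84 FPKM and 12.5 and 12.3 FPKM, with -0.12 (SE 0.048, adjusted p = 0.0541) at 8 h and 0.14 (SE 0.048, adjusted p = 0.0299) at 24 h by limma. The 8 h value of Tead1 was 0.01 after quantile normalization, so no direction is given for it. The 24 h call of Tead1 was lost without either untreated library or the first of 24 h, where the difference was 0.12 to 0.15. It was also lost when only the groups compared were fitted (adjusted p = 0.0939 by limma).

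The next comparison set KD cells against control cells at the same time. In untreated cells 4 of the 9 genes were higher in KD and 2 lower, beside 10.6% and 9.09% of all 11450 genes. At 8 h 2 were higher and 3 lower, beside 19.3% and 16.5% of all genes. At 24 h 1 was higher and 4 lower, beside 16.8% and 11.5%. Ctgf was called higher untreated and at 8 h, Ankrd1 at all 3 times, Cyr61 in untreated cells alone, and Amotl2 higher untreated and lower at 24 h. Yap1 and Ajuba were called lower at all 3 times and Tead1 at 8 and 24 h, while Wwtr1 and Lats2 were called at no time.

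**Figure D3:**
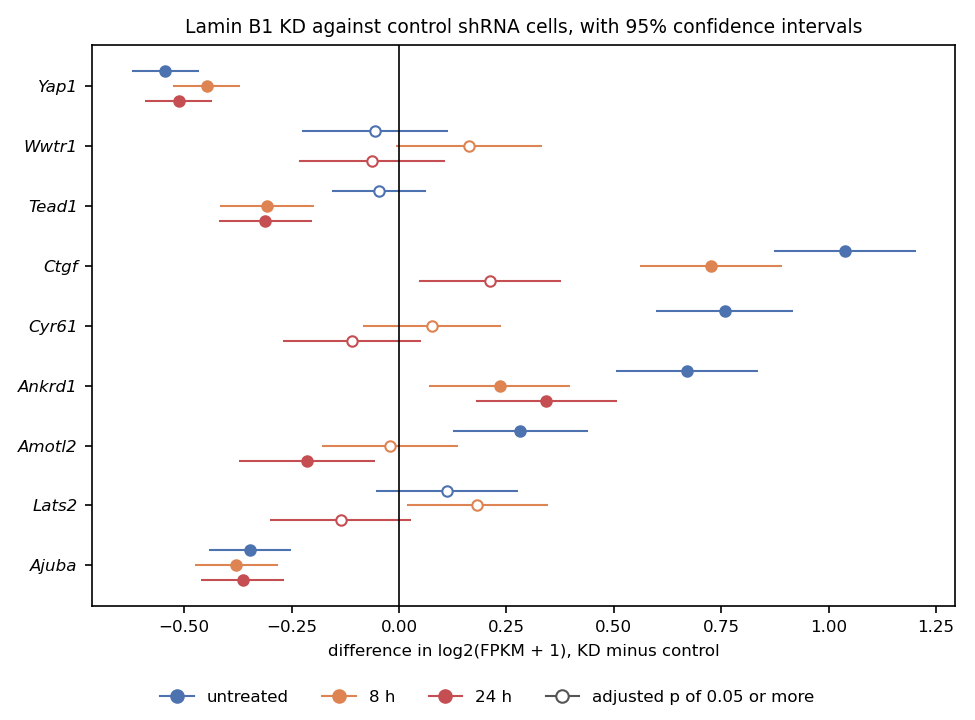
Difference in log2(FPKM + 1) between lamin B1 KD and control shRNA cells for each gene, untreated (blue) and after 8 h (orange) and 24 h (red) of TGF-β. Points are limma estimates from 2 libraries per group with 95% confidence intervals, and white points had an adjusted p of 0.05 or more. Yap1 and Ajuba lie left of 0 at all 3 times, while Ctgf moves from right of 0 towards it and Cyr61 to either side of it.

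Yap1 was lower in KD cells at all 3 times, with no overlap between the 6 KD and the 6 control libraries. It was at 27.7 and 27.5 FPKM against 40.8 and 40.6 FPKM in untreated cells, and the mean was 0.678 of that of control cells. The log2 differences were -0.54 (SE 0.035, adjusted p = 4.66e-05) untreated, -0.45 (SE 0.035, adjusted p = 7.7e-05) at 8 h and -0.51 (SE 0.035, adjusted p = 6.72e-05) at 24 h by limma. Wwtr1, which encodes the partner coactivator TAZ, was not called at any time, with -0.05 (95% interval -0.22 to 0.12, adjusted p = 0.656) untreated, 0.16 (95% interval -0.01 to 0.33, adjusted p = 0.12) at 8 h and -0.06 (95% interval -0.23 to 0.11, adjusted p = 0.556) at 24 h by limma. The 8 h value of Wwtr1 passed the threshold when either KD library of 24 h was left out (adjusted p = 0.0127 and 0.0128) or only the groups compared were fitted (0.0099), and its 24 h value was -0.19 without the first KD library (adjusted p = 0.0181) and 0.06 without the second.

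Tead1 was not called in untreated cells, with -0.05 (95% interval -0.16 to 0.06, adjusted p = 0.546) by limma, and was lower in KD at 8 h and 24 h. The values were 10.7 and 9.84 FPKM against 13.1 and 12.7 FPKM and 12.5 and 12.3 FPKM against 15.4 and 15.9 FPKM, without overlap. The differences were -0.31 (SE 0.048, adjusted p = 0.00185) and -0.31 (SE 0.048, adjusted p = 0.00256) by limma, the latter with an adjusted p of 0.0513 when only the groups compared were fitted. Ajuba was lower at each time, at 32.5 and 34.3 FPKM against 42.8 and 42.6 FPKM in untreated cells, with differences of -0.35 (SE 0.042, adjusted p = 0.0012) untreated, -0.38 (SE 0.042, adjusted p = 0.000372) at 8 h and -0.36 (SE 0.042, adjusted p = 0.000783) at 24 h by limma.

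Ctgf was higher in KD before treatment and at 8 h. Its untreated libraries were at 148 and 157 FPKM in KD and 75.5 and 71.96 FPKM in control cells, a mean 2.07-fold that of control cells, with a difference of 1.04 (SE 0.073, adjusted p = 6.31e-05) by limma. At 8 h the values were 494 and 519 FPKM against 301 and 310.3 FPKM, a difference of 0.73 (SE 0.073, adjusted p = 0.000235) by limma. At 24 h the KD libraries were still above both control libraries, and the difference of 0.21 (95% interval 0.05 to 0.38, adjusted p = 0.0591) missed the threshold by limma. It was 0.32 (adjusted p = 0.00552) without the first KD library of 24 h and 0.10 (adjusted p = 0.255) without the second.

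Cyr61 was called higher in KD before treatment, at 75.5 and 85.02 FPKM against 45.9 and 48.03 FPKM, with 0.76 (SE 0.07, adjusted p = 0.000289) by limma. At 8 h the difference was 0.08 (95% interval -0.08 to 0.24, adjusted p = 0.432) and at 24 h -0.11 (95% interval -0.27 to 0.05, adjusted p = 0.27) by limma. Ankrd1 was higher in KD at all 3 times, with 205 and 236 FPKM against 147 and 129 FPKM untreated, 173 and 175 against 148 and 148 FPKM at 8 h and 587 and 601 against 468 and 468 FPKM at 24 h. No KD library of Ankrd1 fell within the range of the controls of its time. The differences were 0.67 (SE 0.072, adjusted p = 0.00067), 0.23 (SE 0.072, adjusted p = 0.0341) and 0.34 (SE 0.072, adjusted p = 0.00972) by limma, and the one at 8 h was 0.22 with an adjusted p of 0.0891 after quantile normalization. The 8 h call of Ankrd1 was also lost without either library of control cells at 8 or 24 h or of KD cells at 8 h (adjusted p = 0.0549 to 0.13), and the 24 h call without either control library of 24 h (0.0602 and 0.0551).

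Amotl2 was higher in untreated KD cells, at 50.4 and 52.2 FPKM against 43.4 and 40.6 FPKM, with 0.28 (SE 0.069, adjusted p = 0.0239) by limma, a call lost without the second control library or either KD library (adjusted p = 0.091 to 0.133). It was not called at 8 h, with -0.02 (95% interval -0.18 to 0.14, adjusted p = 0.842), and was lower at 24 h, at 69.9 and 81.9 FPKM against 89.9 and 85.9 FPKM, with -0.21 (SE 0.069, adjusted p = 0.0491) by limma. That last call lay at the threshold and was lost (adjusted p = 0.202) when only the 2 groups compared were fitted, and its difference was -0.10 and -0.33 without the first and the second KD library. Of the 12 fits that leave out 1 library, 9 lost it, all but those without an untreated control library or the second KD library of 24 h. Lats2 was not called at any time, with 0.11 (95% interval -0.05 to 0.28, adjusted p = 0.313) untreated, 0.18 (95% interval 0.02 to 0.35, adjusted p = 0.0804) at 8 h and -0.14 (95% interval -0.30 to 0.03, adjusted p = 0.189) at 24 h by limma. The 24 h value of Lats2 was -0.25 without the first KD library, past the threshold, and -0.02 without the second. Its 8 h value passed the threshold without either KD library of 24 h. It also passed when only the groups compared were fitted (adjusted p = 0.0207 by limma).

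Whether the response to TGF-β itself differed between KD and control cells was tested as an interaction. At 8 h only Cyr61 was called among the 9 genes, with a smaller response in KD, beside 1.61% of all genes lower and 2.45% higher. At 24 h Ctgf, Cyr61 and Amotl2 were called, all with a smaller response in KD, beside 1.98% of all genes lower and 2.73% higher. The difference in the 24 h response was -0.83 (SE 0.1, adjusted p = 0.00527) for Ctgf, -0.87 (SE 0.1, adjusted p = 0.00432) for Cyr61 and -0.50 (SE 0.098, adjusted p = 0.0326) for Amotl2 by limma. In all 3 genes the untreated KD cells were already above the untreated controls, and these are the same libraries that enter the response, so a smaller rise here is not independent of the higher start. Of all genes called at 24 h, 58.0% had a larger response in KD in the values as deposited and 48.0% after quantile normalization.

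The 24 h result was also computed without each KD library of that time. For Ctgf it was -0.72 without the first and -0.94 without the second, for Cyr61 -0.78 and -0.96, and for Amotl2 -0.38 and -0.61, all called by limma. Fitted on only the 4 groups compared, Amotl2 lost its call (adjusted p = 0.125), as it did in the 8 fits without a library of control or KD cells at 8 h, of untreated KD cells or of control cells at 24 h (0.062 to 0.143). Without the first KD library 5 genes were called, Tead1 (-0.28) and Lats2 (-0.36) besides these 3.

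At 8 h the difference in response of Cyr61 was -0.68 (SE 0.1, adjusted p = 0.0163) by limma. Ankrd1, with -0.44 (95% interval -0.67 to -0.20, adjusted p = 0.0531), Amotl2 with -0.30 (95% interval -0.53 to -0.08, adjusted p = 0.125), Ctgf with -0.31 (95% interval -0.55 to -0.08, adjusted p = 0.128) and Tead1 with -0.26 (95% interval -0.42 to -0.11, adjusted p = 0.0716) missed the threshold by limma. The number of genes called at 8 h ran from 0 to 6 as single libraries were left out. Cyr61 lost its call without the second untreated KD library or any of the 8 h libraries (adjusted p = 0.0646 to 0.0809), and Ankrd1 was called without the first untreated control library (0.0343). The number of genes called was 6 without either KD library of 24 h, which do not enter the contrast and change only the estimate of the spread. The 5 genes added there were Amotl2, Ctgf, Ankrd1, Tead1 and Wwtr1. With all libraries, for Wwtr1, Yap1, Lats2 and Ajuba no difference in response was called at either time, and the 24 h intervals were -0.25 to 0.23, -0.08 to 0.14, -0.48 to -0.01 and -0.15 to 0.12 respectively.

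Levels over the 6 groups with shRNA did not put the 9 genes in 1 order. For Ctgf the groups rose from untreated control and untreated KD cells through 8 h control and 8 h KD cells to 24 h control and 24 h KD cells, with no overlap between neighbours. Cyr61 followed the same order up to 24 h, where KD and control libraries overlapped. For Yap1 the 3 KD groups lay lowest, in the order of time, followed by the 3 control groups in the order of time, again with no overlap. For Ankrd1 and Amotl2 untreated KD cells lay above both 8 h groups, and in Amotl2 the 8 h groups and untreated control cells overlapped. Wwtr1 was lowest in untreated cells of both kinds, which overlapped, and highest in KD cells at 8 h. Tead1 and Ajuba were lowest in KD cells at 8 h and highest in control cells at 24 h, with no overlap at either end of the order. Lats2 followed the order of Ctgf up to 8 h, and at 24 h its KD and control libraries overlapped.

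Over the 12 libraries with shRNA, Pearson r of log2 values was 0.97 between Ctgf and Cyr61, 0.95 between Ctgf and Lats2 and 0.95 between Ankrd1 and Amotl2. It was 0.87 between Tead1 and Ajuba and 0.82 between Yap1 and Ajuba, and 0.27 between Yap1 and Wwtr1. With Ctgf, Cyr61 and Ankrd1 in turn, r was 0.12, 0.22 and 0.05 for Yap1, 0.82, 0.71 and 0.35 for Wwtr1 and 0.41, 0.59 and 0.53 for Tead1. Ajuba had 0.07 with Ctgf and -0.02 with Wwtr1. These describe the 12 libraries, which share treatment and normalization. Among the 11449 other genes tested, the one most like Ctgf over the 12 libraries was Sgk1 (r = 0.994, and 0.998 over the 6 parental libraries), the one most like Cyr61 was Fgd3 (0.995 and 0.998), and the one most like Ankrd1 was Rsu1 (0.993 and 0.994). Nt5e, which is on the list of further targets, ranked 3 for Ctgf (0.988 and 0.989). Tvp23b was most like Yap1 (0.990 and 0.715), Fnbp1 most like Tead1 (0.976 and 0.678) and Gpm6b most like Ajuba (0.986 and 0.982). Wnt1 was most like Wwtr1 (0.984 and 0.970), Pla1a most like Amotl2 (0.986 and 0.881) and Rarres1 most like Lats2 (0.985 and 0.938).

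Other genes of the pathway were counted on lists chosen with earlier results of these data known. Of 21 upstream Hippo genes (kinases, scaffolds and junction proteins) 19 were tested, all but Fat4 and Dchs1. In parental cells 6 rose and 3 fell at 8 h, beside 22.4% and 32.1% of all genes. At 24 h 10 rose and 4 fell, beside 33.4% and 37.1%. Wwc1, which encodes the LATS scaffold KIBRA, was lower at 8 h, from a mean of 48.8 to 36.0 FPKM with a difference of -0.43 (SE 0.05, adjusted p = 0.000491) by limma. In control cells 7 rose and 7 fell at 8 h (19.4% and 44.9% of all genes) and 6 rose and 4 fell at 24 h (25.5% and 45.1%). In KD cells 6 rose and 8 fell at 8 h (23.0% and 44.8%) and 6 rose and 6 fell at 24 h (28.6% and 43.3%). Wwc1 fell by 1.09 on the log2 scale in control cells at 24 h and by 1.26 in KD cells. Wwc2 of the same list, given after its values were seen, went the other way. Its mean rose over 24 h from 20.7 to 42.3 FPKM in parental, 24.3 to 47.6 FPKM in control and 23.3 to 43.9 FPKM in KD cells. Frmd6, a FERM domain activator of the pathway, rose at 8 h from a mean of 3.17 to 8.81 FPKM in parental, 3.97 to 16.9 FPKM in control and 4.12 to 15.3 FPKM in KD cells. Between KD and control cells, 1, 2 and 2 of the 19 were higher in KD and 1, 1 and 3 lower at 0, 8 and 24 h. Of all genes 10.6%, 19.3% and 16.8% were higher and 9.09%, 16.5% and 11.5% lower. Frmd6 was lower in KD at 24 h with -0.44 (SE 0.079, adjusted p = 0.00485) by limma. For the difference in response between KD and control cells 0 of the 19 were called at 8 h and 1 at 24 h, Frmd6, with -0.49 (SE 0.11, adjusted p = 0.0452) by limma, and that call was lost in 15 of 17 alternatives. Of all genes 1.61% were lower and 2.45% higher for that difference at 8 h, and 1.98% and 2.73% at 24 h.

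Of 7 other TEAD and Vestigial-like genes, whose products are the other DNA-binding factors and their competing cofactors, 5 were tested. In parental cells 4 rose and none fell at 8 h, beside 22.4% and 32.1% of all genes. At 24 h 4 rose and 1 fell, beside 33.4% and 37.1%. The gene that fell was Tead4, from a mean of 8.08 to 4.14 FPKM with -0.82 (SE 0.068, adjusted p = 3.92e-05) by limma. From 8 to 24 h Vgll3 rose from a mean of 3.45 to 8.47 FPKM. Tead2, given for parental cells after its values were seen, rose from a mean of 21.7 FPKM untreated to 33.2 FPKM at 8 h and 57.3 FPKM at 24 h. In control and in KD cells alike, 2 rose at 8 h, and 4 rose and 1 fell at 24 h. In control cells 19.4% of all genes rose and 44.9% fell at 8 h, and 25.5% and 45.1% at 24 h. For KD cells these shares were 23.0% and 44.8% at 8 h and 28.6% and 43.3% at 24 h. Between KD and control cells 9.09%, 16.5% and 11.5% of all genes were lower in KD at 0, 8 and 24 h. Tead2 was the 1 gene of this list called between KD and control cells at each time, always lower in KD, with -0.60 (SE 0.18, adjusted p = 0.0491) untreated, -0.96 (SE 0.18, adjusted p = 0.00436) at 8 h and -0.60 (SE 0.18, adjusted p = 0.0375) at 24 h by limma. The untreated call was lost without the first untreated control library (adjusted p = 0.195) and without either untreated KD library (0.161 and 0.189), and the 24 h call without either control library of 24 h (0.135 and 0.139) or the first KD library of 24 h, where the difference was -0.28 (adjusted p = 0.0969).

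Of 16 further YAP/TEAD targets 15 were tested. In parental cells 7 rose and 6 fell at 8 h, beside 22.4% and 32.1% of all genes, so that this list did not move as one then. At 24 h 10 rose and 2 fell, beside 33.4% and 37.1%. The largest rises at 24 h were those of Nt5e, the ectonucleotidase CD73, from a mean of 1.45 to 27.9 FPKM, and of the stress gene Gadd45a, from 4.64 to 41.2 FPKM. F3, which encodes tissue factor, fell from 26.8 to 15.2 FPKM. In control cells 7 rose and 7 fell at 8 h (19.4% and 44.9% of all genes) and 7 rose and 2 fell at 24 h (25.5% and 45.1%). In KD cells 7 rose and 7 fell at 8 h (23.0% and 44.8%) and 8 rose and 5 fell at 24 h (28.6% and 43.3%). Axl, a receptor tyrosine kinase, fell by 0.83 on the log2 scale at 8 h in control cells and by 1.18 in KD cells. Between KD and control cells 4 genes were higher and 1 lower at each time. The lower gene was Ccdc80 in untreated cells, with -0.42 (SE 0.097, adjusted p = 0.0186), and Axl at 8 h, with -0.53 (SE 0.066, adjusted p = 0.000612) by limma. Of all genes 10.6%, 19.3% and 16.8% were higher in KD and 9.09%, 16.5% and 11.5% lower at 0, 8 and 24 h. F3 was higher in KD at all 3 times, with 0.61 (SE 0.089, adjusted p = 0.00283), 0.85 (SE 0.089, adjusted p = 0.000282) and 0.47 (SE 0.089, adjusted p = 0.00626) by limma. Nt5e was higher in KD in untreated cells, with 1.02 (SE 0.066, adjusted p = 4.98e-05), and at 24 h, with 0.50 (SE 0.066, adjusted p = 0.00129) by limma.

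The last question was whether lamin B1 and accessible chromatin were found at the 9 genes. A gene was taken to have a peak if one overlapped it by at least 1 bp between 2500 bp upstream of its 5′ end and its 3′ end on mm9. Each list came from 1 library, and the number of reads behind it is unknown, so counts at different times cannot be corrected for depth. The lamin B1 lists held 4645, 10484 and 7083 peaks at 0, 8 and 24 h, and the ATAC lists 9782, 10340 and 33811. Because of this the peaks are given with their score, their place in their own list, and the share of all genes with a peak.

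Lamin B1 peaks were found at 4 of the 9 genes before treatment, at 7 after 8 h and at 7 after 24 h. Of 21758 genes placed on the genome, 19.8%, 38.9% and 29.4% had one, and of the 11027 of them that passed the expression filter 33.5%, 56.4% and 44.1%. ATAC peaks were found at 6, 8 and 9 of the 9 genes, against 37.1%, 33.0% and 60.1% of all placed genes and 64.4%, 55.9% and 92.9% of those that passed the filter. With only peaks scoring at least 100, the lamin B1 counts were 0, 5 and 4, against 4.50%, 16.1% and 12.3% of all placed genes, and the ATAC counts 3, 2 and 8, against 20.5%, 9.05% and 54.2%. With each list cut to the length of the shortest of its assay the lamin B1 counts were 4, 5 and 7, against 19.8%, 21.1% and 21.1%, and the ATAC counts 6, 8 and 7, against 37.1%, 31.8% and 34.7%.

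**Figure D4:**
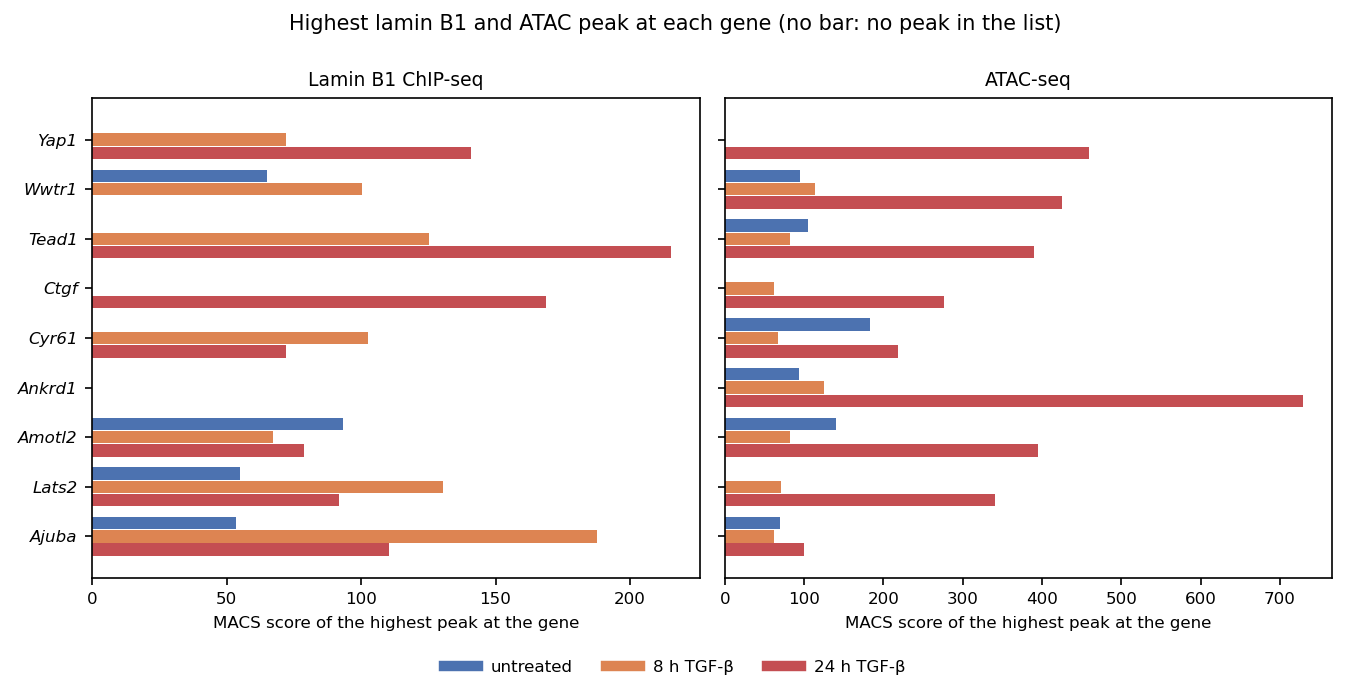
MACS score (linear axis from 0) of the highest lamin B1 peak (left) and ATAC peak (right) at each gene, in untreated cells (blue) and after 8 h (orange) and 24 h (red) of TGF-β, from 1 library each. No bar means that the list held no peak between 2500 bp upstream and the 3′ end. Ankrd1 has no lamin B1 bar and the longest ATAC bar, 729 at 24 h, and Ctgf has a lamin B1 bar at 24 h only.

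Ctgf and Ankrd1 had the fewest lamin B1 peaks of the 9 genes. Ctgf (chr10:24315248-24318489, plus strand) had no lamin B1 peak in the untreated and 8 h lists and 1 at 24 h. That peak lay over its TSS at chr10:24315134-24315973 and scored 168.85, within the top 10.7% of its list. ATAC peaks over the same TSS appeared at 8 h (score 62.5) and at 24 h (score 276.69), and none was listed in untreated cells. The Ctgf TSS also lies within the lincRNA Gm15270 on the other strand. Ankrd1 (chr19:36186455-36194334, minus strand) had none from lamin B1 in any of the 3 lists. Its TSS was covered by an ATAC peak that scored 93.96 before treatment, 124.5 after 8 h and 729.4 after 24 h, the last within the top 0.88% of its list. All 250 bases of the Ankrd1 promoter shown above, both TEAD matches included, lay within the ATAC peak at each time.

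Cyr61 (chr3:145309935-145312949, minus strand) had lamin B1 over its TSS in the lists of 8 h (score 102.46) and 24 h (score 72.14). An ATAC peak covered that TSS at all 3 times, with scores of 183.22, 66.89 and 217.79. These lay within the top 9.28%, 61.81% and 35.92% of their lists, and the one of 24 h was not left in lists of equal length. The whole promoter shown above lay within the ATAC peaks, and the lamin B1 peaks covered 159 bases of it at 8 h and all 250 at 24 h.

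The lists at the factor genes differed between times. Yap1 (chr9:7931999-8004596, minus strand) had none in untreated cells, 2 over annotated starts at 8 h (62.27 and 72.02), and 1 at 24 h that scored 140.99, and none at 8 h was left in lists of equal length. An ATAC peak at Yap1 was listed at 24 h only and scored 459.27. Tead1 (chr7:119822832-120050319, plus strand) had lamin B1 over its start in the lists of 8 h (score 125.29) and 24 h (score 215.16), the highest lamin B1 score at any of the 9 genes. It had 2, 5 and 8 ATAC peaks at 0, 8 and 24 h, most of them in introns. Its first TSS also lies within the lincRNA 2310014F06Rik on the other strand. Both lamin B1 peaks also covered the 5′ end of that lincRNA, so they cannot be assigned to Tead1 alone. Wwtr1 (chr3:57259571-57379832, minus strand) had 2 lamin B1 peaks in untreated cells, one over a TSS with a score of 65.15 and one in an exon with 50.7, a single one over the TSS at 8 h with 100.43, and none at 24 h. ATAC peaks covered its TSS at all 3 times, with scores of 95.01, 114.08 and 425.67.

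The regulators had lamin B1 peaks in all 3 lists, though Amotl2 had none at 8 h in lists of equal length. Amotl2 (chr9:102619002-102635748, plus strand) had 2 lamin B1 peaks at each time, one of which covered the 250 bases searched for motifs, with scores of 71.86, 67.2 and 78.88 at 0, 8 and 24 h. An ATAC peak covered the same bases at each time, with scores of 140.17, 82.81 and 394.56. Lats2 (chr14:58260914-58377225, minus strand) had 1, 3 and 2 lamin B1 peaks, with one over the first of its RefSeq promoters each time, at scores of 54.82, 130.37 and 91.83. Its only ATAC peak at 8 h lay 34785 bp from the nearest Lats2 start and within 500 bp of the 5′ end of Xpo4, which overlaps Lats2 in the annotation, and an ATAC peak over a Lats2 TSS was listed at 24 h only and scored 340.79. Ajuba (annotated as Jub, chr14:55186309-55196253, minus strand) had lamin B1 over its TSS in untreated cells (score 53.35) and at 8 h (score 187.69), the latter within the top 6.53% of its list. At 24 h its 2 lamin B1 peaks lay in an exon and an intron, and an ATAC peak over its TSS was listed at 24 h only and scored 99.97. That ATAC peak lay within the top 68.7% of the long 24 h list, and no ATAC peak at Ajuba was left at 24 h in lists of equal length. The RefSeq start of Ajuba lies upstream of the annotated one on mm9, and its promoter shown above was covered whole by lamin B1 in untreated cells, over 51 bases at 8 h and not at 24 h, when ATAC covered it whole.

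Counting also peaks up to 10 kb from the genes, 3 of 6 lamin B1 peaks shared bases with an ATAC peak before treatment, 4 of 13 after 8 h and 6 of 10 after 24 h. Over the whole lists these shares were 49.4%, 29.9% and 63.9%, so the peaks at the 9 genes were near the share of all peaks.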

How the data were processed

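RNA-seq, lamin B1 ChIP-seq and ATAC-seq files were analysed, and Hi-C is not analysed here. The authors deposited FPKM values, 1 column per library without a header. The submitters' processing notes name Bowtie, TopHat and Cufflinks, without versions, and mm9. The sample descriptions give the order of the columns, by library for shRNA cells and by time for parental cells, which therefore have no replicate numbers. Peak lists were deposited with a MACS score per peak, none below 50, and without reads. MACS is named in the lists themselves, and its version and settings are not given in the sources used here. The study shows IgG controls beside its lamin B1 profiles, and whether the peaks were called against them is not given.

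FPKM values were not turned into counts, since depth is not given. From the steps of low values, relative depth was 93.0% to 116.1% of the first library in parental cells and 79.0% to 112.5% in shRNA cells. Values were tested as log2(FPKM + 1) with limma (version 3.58.1, R 4.3.3), by linear models and empirical Bayes moderation with a trend, all libraries of a table in 1 fit, on 11309 and 11450 genes that reached 1 FPKM in 2 libraries or more. The replicates are biological according to the methods. P-values were adjusted over all genes tested. The tests were tried on simulated data. For each group of cells with shRNA, the second replicate was subtracted from the first, gene by gene. Correlations of these differences over genes, between 15 pairs of groups, ran from -0.14 to 0.37, with 2 over 0.1. These were 0.37 between control and KD cells at 24 h and 0.18 between untreated and 24 h KD cells. The replicate numbers were therefore not taken to pair the libraries across all groups. A pairing of control and KD cells within 24 h alone was not tested.

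GENCODE M1 gave the mm9 position of 21758 of 23295 genes. Motifs were searched in RefSeq promoters (GRCm38.p6) placed on mm9 by exact match, instead of windows cut from the mm9 genome as first planned. Python 3.11.15 was used with numpy 2.4.6 and pandas 2.3.3. The 9 genes and the lists of other pathway genes were chosen with earlier results of these data known. Of the lists, up to 2 genes with the largest rise and 2 with the largest fall per comparison could be named, among called genes with a group mean of at least 1 FPKM, and up to 3 most similar genes per member. Alternatives were quantile normalization, a pseudocount of 0.1, all genes unfiltered, only the groups compared, a block for the replicate number, leaving out each library, other gene windows, a score of at least 100 and lists of equal length.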

Additional observations from a re-analysis of the deposited data

Results flagged for a closer look

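In 8 results the response to TGF-β differed between lamin B1 KD and control cells by a test of the difference itself (limma, Benjamini-Hochberg adjustment over 11450 genes), each time with the log2 change in KD below that in control cells. At 8 h these were 1 of the 9 genes and 1 of 15 further targets tested. At 24 h they were 3 of the 9, 2 of the 15 and 1 of 19 upstream genes. Of the 5 TEAD and Vestigial-like genes tested, 0 were called at either time. Of all genes 1.61% were lower and 2.45% higher for this difference at 8 h, and 1.98% and 2.73% at 24 h. At 8 h the difference on the log2 scale was -0.68 for Cyr61 (adjusted p = 0.0163) and -0.85 for the further target Nt5e (adjusted p = 0.00613). Over 18 fits, the reported one and its alternatives, it ranged from -0.77 to -0.60 for Cyr61, with adjusted p from 0.00489 to 0.0809, and from -1.04 to -0.75 for Nt5e, with adjusted p from 0.00181 to 0.0429. Mean Nt5e was 3.11 FPKM in untreated control cells and 20.3 FPKM at 8 h, and 7.30 FPKM and 22.8 FPKM in KD cells. After 24 h the Nt5e mean was 47.6 FPKM in control and 67.8 FPKM in KD cells.

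At 24 h the difference in response was -0.83 for Ctgf (adjusted p = 0.00527), -0.87 for Cyr61 (adjusted p = 0.00432) and -0.50 for Amotl2 (adjusted p = 0.0326). These fits gave -0.94 to -0.72 for Ctgf, with adjusted p from 0.00135 to 0.041, and -0.96 to -0.78 for Cyr61, with adjusted p from 0.00148 to 0.0383. For Amotl2 they gave -0.61 to -0.38, with adjusted p from 0.00451 to 0.143. Of the further targets, Crim1 differed by -0.57 (adjusted p = 0.0378, 0.000296 to 0.154 over these fits) and Nt5e by -0.51 (adjusted p = 0.0246, 0.00505 to 0.114). Mean Crim1 went from 23.5 to 26.1 FPKM in control and from 29.5 to 21.9 FPKM in KD cells. The upstream gene Frmd6, named after its values were seen, differed by -0.49 (adjusted p = 0.0452, 0.00924 to 0.176). In Ctgf, Cyr61, Amotl2, Crim1 and Nt5e the untreated KD cells were above the untreated control cells, and what part this has in the difference was not tested. No group had the 4 or more samples that a test for outlying samples needs.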

How the results depend on the processing

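Of 1647 values of single genes among the 9 under the alternatives, 1541 kept direction and side of the threshold, 58 fell below it, 36 rose past it and 12 changed sign. Counts of the 9 genes called stayed within 1.5 times under the pseudocount of 0.1, no filter, quantile normalization and the replicate block. Fitted on only the groups compared, 3 genes were called between KD and control cells at 24 h and 3 for the difference in 8 h response. Leaving out single libraries gave 8 to 9 called genes in parental cells at 8 h, 9 at 24 h and 6 to 7 between 8 and 24 h. It gave 4 to 7 at 8 h and 9 at 24 h in control cells, and 7 to 9 and 8 to 9 in KD cells. Between KD and control cells it gave 5 to 6 untreated, 4 to 7 at 8 h and 3 to 7 at 24 h, and for the differences in response 0 to 6 at 8 h and 2 to 5 at 24 h. The 8 h count was 0 without either library of control or KD cells at 8 h or the second of untreated KD cells, where Cyr61 missed the threshold. The KD comparison at 24 h gave 3 without either control library of 24 h, where Ankrd1 and Amotl2 missed it. With the replicate number as a block, which the numbers do not warrant as a pairing, 80 of 81 values in the shRNA table kept their call and Amotl2 at 24 h between KD and control cells lost it (adjusted p = 0.0633). No paired analysis was possible because the columns carry no numbers for parental cells. With only peaks scoring at least 100, lamin B1 peaks were at 0 genes untreated and 4 at 24 h (4.50% and 12.3% of all placed genes), and ATAC peaks at 3 untreated and 2 at 8 h (20.5% and 9.05%).

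The values that changed sign lay between -0.1027 and 0.1452, and none of these values was called. Under quantile normalization these were Lmnb1 at 8 h in control cells (0.10), Tead1 at 8 h in KD cells (0.0065) and the 24 h difference in response of Yap1 (-0.0107). Leaving out single libraries gave -0.01 to 0.0546 for Yap1 from 8 to 24 h in parental cells and -0.1645 to 0.1452 for Lmnb1 at 8 h in control cells, where 0.0068 also changed sign. Between KD and control cells it gave -0.0458 to 0.0043 for Amotl2 at 8 h and -0.1922 to 0.0648 for Wwtr1 at 24 h. For the difference in 8 h response it gave -0.0791 to 0.0163 for Ajuba, where 0.0059 also changed sign. For that at 24 h it gave -0.0025 to 0.0641 for Yap1, -0.1375 to 0.1196 for Wwtr1, with 0.0149 and 0.0435 also of changed sign, -0.0539 to 0.0207 for Ajuba and -0.1027 to 0.5643 for Lmnb1. The cause was not tested. With 2 libraries per group and 1 per peak list, depth is known only relative to other libraries for RNA and not at all for peaks.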

Other observations

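Outside the window used for genes, some peaks lay within 10 kb of the 9 genes. Upstream of Ankrd1, an ATAC peak was listed at all 3 times with its centre at -9688, -9580 and -9618 bp from the TSS at 0, 8 and 24 h, negative meaning upstream. It spanned chr19:36203365-36204680 in untreated cells with a score of 158.43, chr19:36203455-36204374 at 8 h with 69.74 and chr19:36203046-36204858 at 24 h with 745.51, the last within the top 0.74% of its list. The list of untreated cells scored this peak above the one over the Ankrd1 TSS (158.43 against 93.96), the list of 8 h below it (69.74 against 124.5), and that of 24 h about level with it (745.51 against 729.4). The lamin B1 list of 8 h had a peak centred at -3391 bp from the Cyr61 TSS (score 95.98), and an ATAC peak of 50.27 was listed at the same place at 24 h. The lamin B1 list of 8 h also had a peak downstream of Ankrd1, with a score of 51.07.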
